A study of Homo sapiens with 9 samples.

Results

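Voltage-gated calcium channels are built from a pore-forming α1 subunit with auxiliary α2δ, β and, in some channels, γ subunits. The 10 subunit genes described here were taken by their symbols from the 58735 genes counted in each library. They comprise the pore genes CACNA1F and CACNA1H, the α2δ genes CACNA2D1 and CACNA2D4, the β genes CACNB1, CACNB2 and CACNB3, and the γ genes CACNG4, CACNG6 and CACNG7. The RNA was that of MDA-MB-231, a long-established line of triple-negative breast cancer cells, sequenced in 9 libraries. Vehicle cells were treated with DMSO (3 libraries), erastin-R cells had survived increased concentrations of erastin (3 libraries), and RSL3-R cells had survived increased concentrations of RSL3 (3 libraries). Erastin blocks cystine import through system xc-, RSL3 inhibits the lipid peroxidase GPX4, and both agents induce ferroptosis, a cell death driven by iron-dependent lipid peroxidation. All groups share 1 parental line, and the labels do not say whether the 3 libraries of a group came from separate cultures, so the p values measure the spread between these libraries only, which may be technical.

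The α1 subunit holds the pore, the voltage sensor and the binding sites of channel blockers. The intracellular β subunit and the extracellular, membrane-anchored α2δ subunit carry high-voltage-activated channels to the cell surface and tune their gating, whereas low-voltage-activated (T-type) α1 subunits can work without them. Several γ subunits act mainly as partners of AMPA-type glutamate receptors rather than of calcium channels. Calcium that enters through these channels binds calmodulin and can reach Ras and the MAPK cascade, and pathway collections therefore list the channel subunits under MAPK signalling. Several of these subunit genes appear in the display of MAPK genes that the study drew from these same libraries, so their direction here is not independent of that choice.

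Of the members, 2 lie close together in the genome (GRCh38). CACNG7 (chr19:53909335-53943941, plus strand) and CACNG6 (chr19:53992288-54012669, plus strand) are separated by 48347 bases. The others are CACNA1F (chrX:49205063-49233371, minus strand), CACNA1H (chr16:1153121-1221772, plus), CACNA2D1 (chr7:81946444-82443798, minus), CACNA2D4 (chr12:1791957-1918836, minus), CACNB3 (chr12:48813794-48828941, plus), CACNB1 (chr17:39173456-39197703, minus), CACNG4 (chr17:66964910-67033398, plus) and CACNB2 (chr10:18140677-18543557, plus). The exon length of all 10 genes equalled that of GENCODE release 29, so the values below refer to reads in the exons of those models, untranslated regions included.

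Promoters are shown for CACNA1F and CACNG6, which were called higher in both survivor groups, and for CACNB1, which stood highest per length in vehicle cells and was called in neither. Each had 1 start in RefSeq. The lines give 250 bases before the RefSeq start, 5′ to 3′ on the strand of the gene (GRCh38.p14), for CACNA1F at chrX:49233341-49233590, CACNG6 at chr19:53991387-53991636 and CACNB1 at chr17:39197670-39197919. Capitals mark the GC box GGGCGG on either strand.
CACNA1F: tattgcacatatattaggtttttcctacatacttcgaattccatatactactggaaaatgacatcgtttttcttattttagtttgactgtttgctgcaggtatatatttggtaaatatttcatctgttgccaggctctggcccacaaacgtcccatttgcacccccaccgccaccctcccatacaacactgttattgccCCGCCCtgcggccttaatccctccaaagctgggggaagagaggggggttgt
CACNG6: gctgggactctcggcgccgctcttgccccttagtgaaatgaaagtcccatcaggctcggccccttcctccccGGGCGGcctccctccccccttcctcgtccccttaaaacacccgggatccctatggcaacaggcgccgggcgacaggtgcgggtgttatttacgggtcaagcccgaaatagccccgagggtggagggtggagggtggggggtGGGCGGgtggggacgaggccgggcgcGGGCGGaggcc
CACNB1: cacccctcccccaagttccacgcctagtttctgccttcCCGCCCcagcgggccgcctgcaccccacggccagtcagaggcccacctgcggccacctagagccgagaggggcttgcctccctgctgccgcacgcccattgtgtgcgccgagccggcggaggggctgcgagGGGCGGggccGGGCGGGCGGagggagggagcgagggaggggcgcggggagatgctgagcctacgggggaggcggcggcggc
The CACNA1F window held 1 GC box and 45.2% G+C, the CACNG6 window 3 and 69.2%, and the CACNB1 window 4 and 76.4%, next to a median of 58% over the 35116 windows of the RefSeq table. RefSeq entries were matched for 6 of the 10 genes, with 11 windows in all, and 6 of these 11 held a GC box, which is present in 42.64% of all windows. The other motifs searched on both strands were not found in any of the 11 windows. They were the amino acid response motif TGATGNAA (3.144% of all windows), the AP-1 motif TGANTCA (6.573%), the antioxidant response motif TGACNNNGC (10.91%, which can overlap an AP-1 match), the cyclic AMP response motif TGACGTCA (1.646%), the E-box CACGTG (6.345%) and the TATA box TATAAA (10.72%). The next 50 bases downstream of the CACNA1F and CACNB1 windows lie in a GENCODE transcript of the gene, and those of CACNG6 do not, because its RefSeq start lies before the first base of the counted model.

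Total counts ranged from 15405102 to 17273464 per library. For the 16188 genes that passed a filter on low counts, edgeR estimated a common coefficient of variation between replicates of 8.56%, which leaves out counting error. Erastin-R replicate 1 stood apart from its group. It lay at -35.7 on the third principal component, against 14.4 and 13.0 for the other erastin-R libraries, and its log2 CPM correlated with theirs at 0.986, whereas the other pairs within a group reached 0.991 to 0.992. Differences of the tested members that involve the erastin-R group, and the calls of the other lists that do, are therefore also given without it. The line's own markers VIM, CD44, ZEB1 and AXL summed to between 43089 and 53010 counts per library, and ESR1, PGR, CDH1 and EPCAM, which are low in this line, to 50 to 68 in vehicle, 23 to 48 in erastin-R and 87 to 103 in RSL3-R libraries, with CDH1 called higher in RSL3-R cells (1.58 on the log2 scale, adjusted p = 0.00130). For other cell types that use these channels, 5 muscle genes summed to 2 to 8 counts per library with TNNT2 at 0 in all, and STMN2, a neuronal gene, was at 0 in all. The 5 neuronal genes together had 109 to 122 counts in vehicle, 115 to 183 in erastin-R and 172 to 187 in RSL3-R libraries, with SYT1 called higher in RSL3-R cells. The 4 fibroblast genes had 236 to 288, 229 to 284 and 319 to 392 counts, with COL1A2 at 0 or 1. DCN was called lower in both survivor groups, and it passed the filter through the vehicle libraries (18, 15 and 13 counts). In RSL3-R cells PDGFRB (0.69, adjusted p = 0.000390) and COL1A1 (0.39, adjusted p = 0.0469) were higher by under 2-fold. The 4 leukocyte genes had 12 to 14, 3 to 13 and 26 to 29, and PTPRC was called higher in RSL3-R cells (1.67, adjusted p = 0.00817). PTPRC passed the filter chiefly through the RSL3-R libraries (19, 24 and 24 counts), where it is high, with 3 to 11 counts in each other library. The part of these markers in the results below was not tested.

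Read depth divided the members into those with ample reads and those without. CACNA1H, a T-type pore gene, had 0, 0 and 0 counts in vehicle libraries, 1, 2 and 0 in erastin-R libraries and 1, 1 and 5 in RSL3-R libraries. CACNG4, a partner of AMPA receptors, had 0, 0 and 1, then 2, 0 and 0, then 0, 0 and 1. These 2 genes therefore rested on fewer than 10 reads in every library, did not pass the filter on low counts and were not tested, and no fold change is given for them. A count of 0 allows up to 3 counts, which is 0.174 to 0.195 CPM in these libraries, by counting error only. By contrast, CACNA1F had fewer than 10 reads in all 3 vehicle libraries but 15 or more in every survivor library. The other 7 members had at least 10 reads in each library. In all, 8 of the 10 passed the filter, and CACNA1F did so through the survivor groups.

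**Figure D1:**
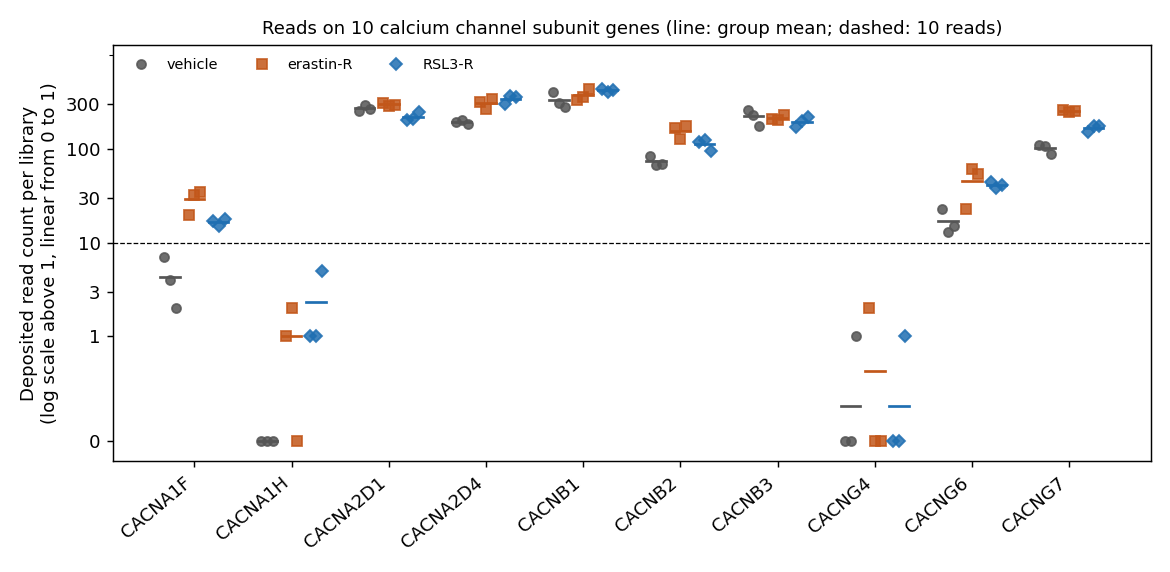
Deposited read counts of the 10 subunit genes in each of the 9 libraries (y axis, log scale above 1 and linear from 0 to 1, with the dashed line at 10 reads); points are libraries, short lines group means. CACNA1H and CACNG4 lie under 10 reads throughout, CACNA1F lies under 10 in vehicle cells only, and CACNG7 shows 3 separate levels.

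The pore gene tested was CACNA1F, which encodes the L-type channel Cav1.4 known from photoreceptor synapses. Its counts were 7, 4 and 2 in vehicle, 20, 32 and 35 in erastin-R and 17, 15 and 18 in RSL3-R libraries. Every survivor library lay above every vehicle library, and every RSL3-R library lay below every erastin-R library. In CPM (the count per library size, scaled by TMM factors), CACNA1F was at 0.263 ± 0.148 (SD, n = 3) in vehicle, 1.79 ± 0.516 in erastin-R and 1.03 ± 0.0848 in the RSL3-R cells. All genes were compared with edgeR's quasi-likelihood test, and adjusted p values are Benjamini-Hochberg values over the 16188 genes that passed the filter. Against vehicle, CACNA1F rose by 2.72 on the log2 scale in erastin-R cells (SE 0.42, 95% interval 1.81 to 3.63, edgeR adjusted p = 0.000101) and in RSL3-R cells by 1.93 (SE 0.45, 0.95 to 2.91, adjusted p = 0.00305). The size of these changes rests on at most 7 reads in a vehicle library, and it ranged from 2.39 to 3.21 and from 1.60 to 2.43 over 15 other ways of fitting the counts. CACNA1F passed the filter only through the survivor libraries, where it is high, so neither test against vehicle is independent support. Without erastin-R replicate 1, the erastin-R change was 2.94 (adjusted p = 2.30e-06).

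Between the survivor groups CACNA1F did not pass the threshold, with a log2 fold change of RSL3-R against erastin-R of -0.79 (95% interval -1.52 to -0.06, adjusted p = 0.0675). This result depended on 1 library. Without erastin-R replicate 1 the difference was -1.01 with an adjusted p of 0.0199, past the threshold, while the 14 other settings gave adjusted p values of 0.05 or more, up to 0.203. CACNA1F exons overlapped no other gene's exons on either strand, and 0.043% of its 50-base words occurred in another gene's transcripts. Its nearest neighbour CCDC22, 2096 bases away, moved by 0.28 and -0.09 in the 2 survivor groups on the log2 scale. SYP, 4804 bases away on the other side, went from 17, 25 and 18 counts to 6, 1 and 14 in erastin-R (adjusted p = 0.0258) and to 11, 10 and 8 in RSL3-R libraries (adjusted p = 0.103).

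Pore transcripts were scarce in all groups. Over all 10 α1 genes in the files, 7 had a read in some library and 2, CACNA1F and CACNA1G, reached 10 reads in any library. The summed α1 counts were 13, 11 and 3 in vehicle, 30, 53 and 44 in erastin-R and 22, 26 and 32 in RSL3-R libraries. CACNA1G, a T-type pore gene named here after its values were seen, had 6, 5 and 1, then 6, 10 and 7, then 3, 7 and 7 reads, and CACNA1C, the pore gene of heart L-type channels, had 4 reads in 1 erastin-R library and 0 or 1 in each other library. Pore genes made up 0.23% to 2.05% of the summed FPKM (reads scaled by exon length and library size) of all 26 subunit genes. Reads of CACNA1H could in part be shared with CACNA1G and CACNA1I, since 1.77% of its 50-base words occur in transcripts of those and other genes.

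The 2 α2δ members moved differently. CACNA2D4 encodes α2δ-4, which is known as the partner of Cav1.4 in photoreceptors. It had 194, 202 and 186 counts in vehicle, 315, 267 and 341 in erastin-R and 301, 364 and 358 in RSL3-R libraries, and both survivor groups lay wholly above vehicle. In CPM it was at 11.8 ± 0.554 (SD, n = 3), 18.8 ± 1.87 and 21.0 ± 1.61. CACNA2D4 was higher by 0.67 in erastin-R cells (SE 0.11, adjusted p = 0.000139) and by 0.83 in RSL3-R cells (SE 0.11, adjusted p = 2.46e-05), both under the 2-fold limit. The former was also 0.67 without erastin-R replicate 1. The survivor groups differed by 0.16 (95% interval -0.07 to 0.38, adjusted p = 0.229), or by 0.15 without that library, and their counts overlapped. The neighbouring gene ADIPOR2, 3279 bases away on the opposite strand, moved by -0.65 and 0.15.

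CACNA2D1, which encodes the widely expressed α2δ-1 that binds gabapentin, had 254, 293 and 267 counts in vehicle, 312, 291 and 294 in erastin-R and 204, 209 and 250 in RSL3-R libraries. Its RSL3-R counts lay below those of both other groups. The erastin-R cells differed from vehicle by 0.15 (95% interval -0.07 to 0.36, adjusted p = 0.239), and by 0.14 without erastin-R replicate 1. In RSL3-R cells it was -0.29 (SE 0.10, adjusted p = 0.0335), a difference that lost its adjusted p of 0.05 in 9 of 15 other settings, where it reached 0.152. Among these were the fits without vehicle replicate 2 or 3 and without any 1 of the RSL3-R replicates (0.0552 to 0.152). RSL3-R against erastin-R the difference was -0.43 (SE 0.10, adjusted p = 0.00319), and it kept an adjusted p under 0.05 in all 15 settings, with 0.0166 as the highest. It was -0.42 without erastin-R replicate 1.

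Among the β members, CACNB2 moved most. It encodes β2, the main β subunit of heart L-type channels, and had 85, 68 and 69 counts in vehicle, 168, 128 and 177 in erastin-R and 119, 126 and 96 in RSL3-R libraries. The 3 groups did not overlap, with erastin-R highest and vehicle lowest. CPM values were 4.51 ± 0.486 (SD, n = 3), 9.64 ± 1.35 and 7.04 ± 1.24. CACNB2 rose in erastin-R cells by 1.10 (SE 0.17, 95% interval 0.73 to 1.46, adjusted p = 9.47e-05), and the fold stayed just over the limit in all settings (1.01 to 1.20, and 1.07 without erastin-R replicate 1). In RSL3-R cells it was higher by 0.64 (SE 0.17, adjusted p = 0.00756). Between the survivor groups the difference was -0.46 on the log2 scale, lower in RSL3-R cells (SE 0.16, adjusted p = 0.0303), and it missed an adjusted p of 0.05 in 5 of 15 settings, with DESeq2, upper-quartile scaling, only these 2 groups in the fit, or without erastin-R replicate 3 or RSL3-R replicate 3. With erastin-R replicate 1 left out it was -0.43 (adjusted p = 0.0298).

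CACNB2 is also the member whose reads are least certain. The annotation places AL450384.2 on the opposite strand, sharing 742 bases or 8.29% of the CACNB2 exon length, and the library kit does not mark strand, so reads of the 2 genes there cannot be told apart. AL450384.2 had 34, 22 and 47 counts in vehicle, 88, 61 and 47 in erastin-R and 79, 80 and 89 in RSL3-R libraries. It moved with CACNB2 against vehicle, by 0.93 (adjusted p = 0.00959) in erastin-R and 1.28 (adjusted p = 0.00114) in the RSL3-R cells, and its part in the CACNB2 values was not tested. In addition, 10.6% of the 50-base words of CACNB2 occur in transcripts of other genes.

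CACNB1 encodes β1, the β subunit of skeletal muscle channels, and had the most reads of the members. Its counts were 405, 312 and 281 in vehicle, 330, 360 and 435 in erastin-R and 442, 411 and 423 in RSL3-R libraries. Vehicle and erastin-R libraries overlapped, whereas the RSL3-R libraries lay above all vehicle libraries. CACNB1 differed from vehicle by 0.18 in erastin-R cells (95% interval -0.10 to 0.47, adjusted p = 0.262) and 0.37 in RSL3-R cells (SE 0.13, adjusted p = 0.0308). Without erastin-R replicate 1 the erastin-R value was 0.28 with an adjusted p of 0.0332. RSL3-R against erastin-R the difference was 0.19 (95% interval -0.09 to 0.47, adjusted p = 0.245), or 0.09 when that library was left out. The RSL3-R difference lost its adjusted p of 0.05 in 4 of 15 settings, without vehicle replicate 2 (0.0984), vehicle replicate 3 (0.136), RSL3-R replicate 1 (0.118) or RSL3-R replicate 2 (0.0594).

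CACNB3, a β subunit common in neurons and smooth muscle, had 261, 232 and 176 counts in vehicle, 211, 206 and 230 in erastin-R and 171, 198 and 220 in RSL3-R libraries, and all groups overlapped. Its log2 fold changes were -0.04 (95% interval -0.33 to 0.25), -0.17 (-0.46 to 0.12) and, RSL3-R against erastin-R, -0.13 (-0.42 to 0.16). Leaving out erastin-R replicate 1 gave -0.005 against vehicle and -0.17 between the survivor groups. No CACNB3 difference passed an adjusted p of 0.05 in any of the 15 settings. The intervals leave room for changes of well under 2-fold only. The nearest gene DDX23, 823 bases away on the opposite strand, fell by 0.71 and 0.73.

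Both γ genes with enough reads were higher in survivor cells. CACNG7 encodes γ7, known mainly as a regulator of AMPA receptors. Its counts were 110, 107 and 88 in vehicle, 261, 250 and 254 in erastin-R and 153, 176 and 174 in RSL3-R libraries, so that the groups formed 3 levels without overlap. In CPM these were 6.20 ± 0.667 (SD, n = 3), 15.6 ± 0.244 and 10.3 ± 0.554. CACNG7 rose by 1.33 in erastin-R cells (SE 0.12, 95% interval 1.08 to 1.59, adjusted p = 5.42e-07), and by 1.34 without erastin-R replicate 1. It was higher by 0.74 in RSL3-R cells (SE 0.12, adjusted p = 0.000186), under 2-fold. RSL3-R cells stood below erastin-R cells at -0.60 (SE 0.11, adjusted p = 0.000552), and at -0.60 without erastin-R replicate 1.

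CACNG6 encodes γ6, a relative of the muscle channel subunit γ1. It had 23, 13 and 15 counts in vehicle, 23, 61 and 54 in erastin-R and 45, 38 and 41 in RSL3-R libraries. Erastin-R replicate 1 had the same count as vehicle replicate 1, and the other 5 survivor libraries lay above all vehicle libraries. CPM values were 1.03 ± 0.299 (SD, n = 3), 2.84 ± 1.31 and 2.55 ± 0.302. CACNG6 rose by 1.45 in erastin-R cells (SE 0.36, 95% interval 0.67 to 2.22, adjusted p = 0.00380), and by 1.78 without erastin-R replicate 1 (adjusted p = 4.65e-06). In RSL3-R cells it rose by 1.29 (SE 0.36, 95% interval 0.51 to 2.08, adjusted p = 0.00934). The survivor groups differed by -0.15 (95% interval -0.84 to 0.53, adjusted p = 0.719), an interval wide enough to hold most of a 2-fold difference. Leaving out erastin-R replicate 1 moved this difference to -0.49 (adjusted p = 0.103). No other gene's exons overlapped those of CACNG6 or CACNG7, and none of their 50-base words occurred elsewhere.

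**Figure D2:**
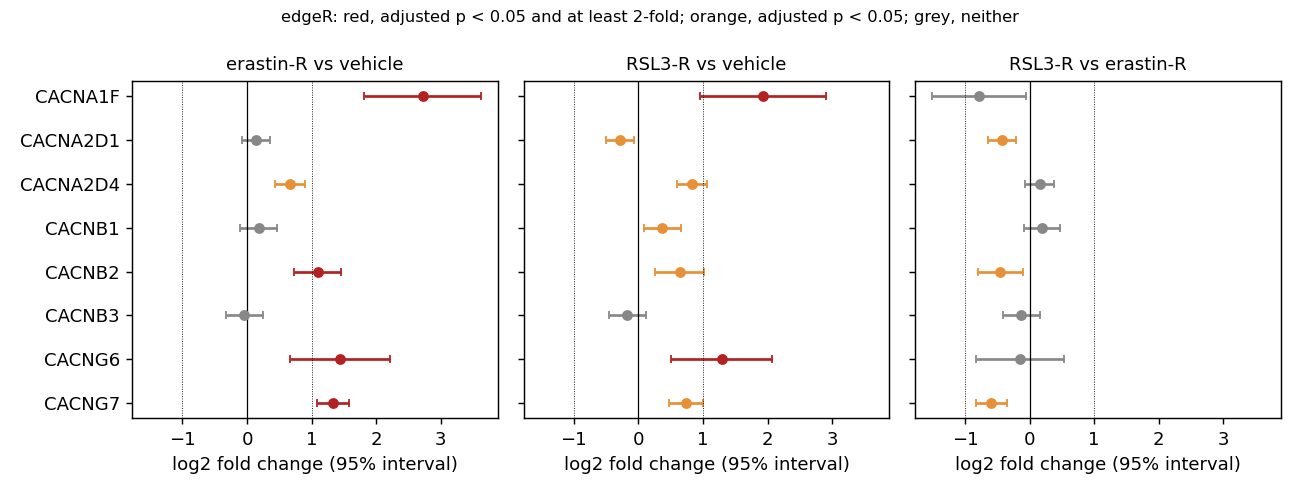
Log2 fold changes (x axis) of the 8 tested subunit genes in the 3 comparisons, with 95% intervals from edgeR; dotted lines mark 2-fold. CACNA1F and CACNG6 lie past 2-fold in both comparisons with vehicle, with CACNB2 and CACNG7 past it in erastin-R cells, and no gene is called between the survivor groups.

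Counted together, 4 of the 8 tested members were called higher in erastin-R cells (CACNA1F, CACNB2, CACNG6 and CACNG7), where a call means an edgeR adjusted p under 0.05 and at least 2-fold. Over all 16188 genes tested, 13.4% were called in that comparison and 6.70% called higher. By the adjusted p alone, 5 members were higher, beside 27.1% of all genes, and 0 were lower, beside 26.8%. No member was lower by an unadjusted p under 0.05 either, and DESeq2, another count model, called 4 higher and 0 lower. The median log2 fold change of the 8 members was 0.88, next to -0.004 over all genes. CACNA1F, having passed the filter only through the groups where it is high, had to differ to be counted. Leaving it out, 3 of 7 were called higher, and the median was 0.67. CACNA1F, CACNB2, CACNG6 and CACNG7 were also the members called without erastin-R replicate 1.

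In RSL3-R cells 2 members, CACNA1F and CACNG6, were called higher, beside 10.1% of all genes called and 6.02% called higher. DESeq2 also called 2 higher and 0 lower. By the adjusted p alone 6 were higher, beside 23.8%, and 1 was lower, CACNA2D1, beside 24.9%. The median over the 8 members was 0.69, next to 0.005 over all genes. Leaving out CACNA1F for the same reason, 1 of 7 was called higher, and the median was 0.64. Both comparisons share the vehicle libraries. The members were chosen with results of these data known, so their counts are given beside the background without a test.

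Between RSL3-R and erastin-R cells edgeR called 0 members, beside 10.3% of all genes, and DESeq2 called 0. By the adjusted p alone 3 were lower (CACNG7, CACNA2D1 and CACNB2), beside 26.9% of all genes, and 0 were higher, beside 22.3%. An unadjusted p under 0.05 was reached by 4 members, all lower in RSL3-R cells. The median was -0.29, or -0.15 without CACNA1F, next to -0.02 over all genes. A library of bulk RNA cannot tell a higher level in each cell from a larger share of cells that carry the transcript.

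Levels can be set side by side between genes only per exon length, as FPKM. In vehicle cells CACNB1 stood highest at 2.42 to 3.36 FPKM, above CACNG7 (1.92 to 2.33), CACNB3 (1.51 to 2.15) and CACNA2D1 (1.66 to 1.99), whose ranges overlapped their neighbours in this order. CACNA2D4 followed at 1.49 to 1.61, then CACNG6 (0.428 to 0.731) and CACNB2 (0.464 to 0.559), which overlapped. CACNA1F was at 0.0177 to 0.0595, CACNG4 at 0 to 0.0181, and CACNA1H was listed at 0. In erastin-R cells CACNG7 took the first place at 5.45 to 5.60 FPKM, clear of CACNB1 at 2.72 to 3.69. In RSL3-R cells CACNB1 (3.47 to 3.98) and CACNG7 (3.49 to 3.87) overlapped at the top. CACNA2D4 came next in both survivor groups, at 2.19 to 2.69 and 2.52 to 2.93 FPKM.

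Summed over all 26 subunit genes, FPKM was 11.8 ± 1.10 (SD, n = 3) in vehicle, 18.9 ± 1.26 in erastin-R and 16.3 ± 0.205 in the RSL3-R cells. In FPKM units the γ sum moved furthest, from 2.77 ± 0.325 to 7.05 ± 0.743 and 5.06 ± 0.109 FPKM. The α2δ class went from 3.52 ± 0.267 to 4.79 ± 0.287 and 4.55 ± 0.210, without overlap of vehicle and survivor libraries, and the β class from 5.47 ± 0.803 to 6.70 ± 0.601 and 6.49 ± 0.253, with overlap. The α1 class stayed lowest, at 0.0642 ± 0.0367, 0.322 ± 0.0878 and 0.205 ± 0.0215 FPKM, although relative to its vehicle level it moved more than the γ class. Without replicate 1 the erastin-R sums were 7.27 to 7.67 for γ, 4.48 to 5.04 for α2δ, 6.49 to 7.38 for β, now above all vehicle libraries, and 0.355 to 0.389 for α1. No test was run on the sums. Within the β class, CACNB1 held 51.5% ± 1.85 (SD, n = 3) of the summed FPKM in vehicle, 47.6% ± 3.47 in erastin-R and 56.5% ± 2.15 in the RSL3-R cells. CACNB3 held 34.2% ± 2.31, 27.2% ± 0.868 and 25.9% ± 3.02, and CACNB2 held 9.16% ± 0.766, 15.8% ± 1.90 and 12.0% ± 1.78.

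**Figure D3:**
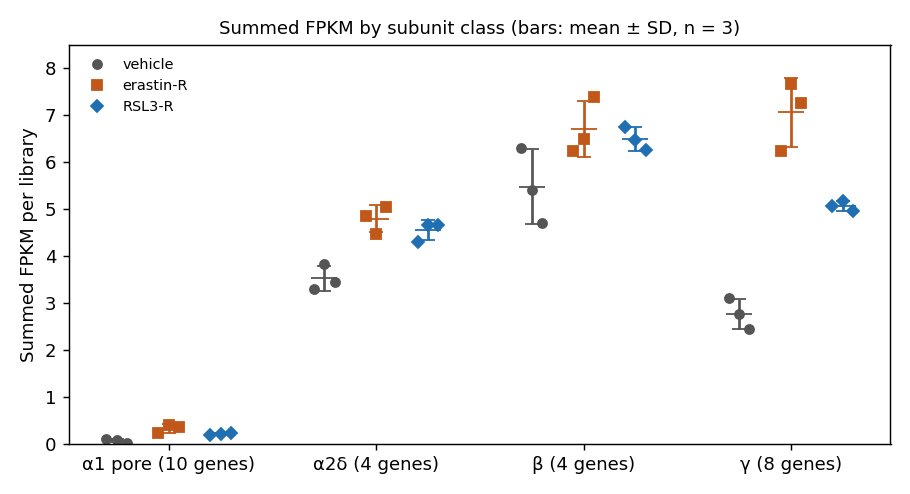
Summed FPKM (y axis) of all genes of each subunit class in each library; points are libraries, bars mean ± SD (n = 3). The pore class stays near 0 in all groups, and the γ class separates the 3 groups.

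Of the 16 other channel subunit genes, 3 passed the filter on low counts. CACNB4, the β4 gene, had 143, 166 and 180 counts in vehicle, 433, 351 and 338 in erastin-R and 222, 199 and 231 in RSL3-R libraries. It rose in erastin-R cells by 1.20 (SE 0.13, adjusted p = 2.72e-06) and was higher in RSL3-R cells by 0.43 (adjusted p = 0.0140). CACNA2D2, an α2δ gene, rose in erastin-R cells by 1.95 (SE 0.34, adjusted p = 0.000264), from 7, 9 and 8 counts to 37, 22 and 35, and stood at 13, 15 and 10 in RSL3-R libraries. With under 10 vehicle counts in each library it passed the filter through the survivor libraries, so its test is no independent support. CACNA2D3 had 6, 10 and 5 counts in vehicle, 6, 3 and 4 in erastin-R and 15, 12 and 19 in RSL3-R libraries, and edgeR called it higher in RSL3-R cells by 1.13 (SE 0.41, adjusted p = 0.0349), whereas DESeq2 called 0 of these 3 genes there. It passed the filter chiefly through the RSL3-R libraries, where it is high. RSL3-R against erastin-R, CACNA2D2 was lower at -1.28 and CACNA2D3 higher at 1.80 (adjusted p = 0.00406 and 0.00426), and these were -1.17 and 2.08 without erastin-R replicate 1. In erastin-R cells against vehicle, leaving it out gave 1.11 for CACNB4 and 1.84 for CACNA2D2. The remaining 13 genes had at most 10 counts in a library.

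Genes that bind the channels or handle calcium were read from lists chosen by role. Of 10 channel-binding regulators, 7 were tested, and REM2, a small GTPase that inhibits high-voltage-activated channels through the β subunit, was called higher in both survivor groups. REM2 was at 1.03 ± 0.299 CPM (SD, n = 3) in vehicle, 3.21 ± 0.548 in erastin-R and 3.33 ± 0.357 in the RSL3-R cells, with log2 fold changes of 1.62 (SE 0.25, adjusted p = 0.000106) and 1.68 (SE 0.25, adjusted p = 9.12e-05). By the adjusted p alone, 2 of the 7 regulators were higher and 1 lower in each survivor group, shares near or below those of all genes (27.1% and 26.8% for erastin-R, 23.8% and 24.9% for RSL3-R). The median of the 7 was -0.10 in the erastin-R and 0.10 in the RSL3-R comparison. REM2 was higher by 1.71 without erastin-R replicate 1.

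Of 11 genes of store-operated entry and release, 10 were tested, and the ryanodine receptor genes RYR3 and RYR2, whose products release calcium from the endoplasmic reticulum, fell in erastin-R cells, with log2 fold changes of -2.29 (SE 0.37, adjusted p = 0.000141) and -1.36 (SE 0.35, adjusted p = 0.00423). RYR3 was at 2.42 ± 0.469 CPM (SD, n = 3) in vehicle, 0.485 ± 0.256 in erastin-R and 2.52 ± 0.624 in the RSL3-R cells. RYR2 was at 1.12 ± 0.171, 0.431 ± 0.116 and 1.77 ± 0.0325 CPM. Both genes passed the filter chiefly through the vehicle and RSL3-R libraries, where they are high. Their tests against erastin-R cells are therefore no independent support. Against erastin-R cells, RSL3-R cells were higher by 2.36 for RYR3 and 2.02 for RYR2 (adjusted p = 0.000136 and 0.000178). In RSL3-R cells against vehicle edgeR and DESeq2 each called 0 of the 10, with 2 higher and 1 lower at an unadjusted p under 0.05. Without erastin-R replicate 1, the erastin-R changes were -2.56 and -1.16 (adjusted p = 0.0237 for RYR2). The differences between the survivor groups were then 2.63 and 1.81. Judged on the adjusted p alone, 2 of the 10 were higher and 4 lower in erastin-R cells, beside 27.1% and 26.8% of all genes, and 1 was higher and 1 lower in RSL3-R cells, beside 23.8% and 24.9%. The medians of the 10 genes were -0.14 and 0.04 in the 2 survivor groups.

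Among 13 calcium pumps and exchangers, 8 were tested. ATP2A1, a SERCA pump that returns calcium to the endoplasmic reticulum, rose in erastin-R cells by 1.17 (SE 0.15, adjusted p = 1.34e-05) and in RSL3-R cells by 1.14 (SE 0.15, adjusted p = 2.14e-05). ATP2A1 stood at 4.30 ± 0.623 CPM (SD, n = 3) in vehicle, 9.70 ± 0.888 in erastin-R and 9.45 ± 0.644 in the RSL3-R cells. ATP2A3, another SERCA pump, was called higher in RSL3-R cells by 1.58 (SE 0.34, adjusted p = 0.00162) and against erastin-R cells by 1.07 (adjusted p = 0.0141). Without erastin-R replicate 1, ATP2A1 was higher by 1.23, and the ATP2A3 difference between the survivor groups was 0.89, under 2-fold. With no fold limit, 2 of the 8 pumps and exchangers passed the adjusted p as higher and 0 as lower in erastin-R cells, also 0 lower at an unadjusted p under 0.05 and by DESeq2, beside 27.1% and 26.8% of all genes, and 3 were higher and 2 lower in RSL3-R cells, beside 23.8% and 24.9%. The 2 lower genes, named after their values were seen, had far higher levels than ATP2A1 and ATP2A3. They were ATP2A2, the widely expressed SERCA pump, at 755.7 ± 14.97 CPM (SD, n = 3) in vehicle and 557.3 ± 9.53 in RSL3-R cells (log2 fold change -0.44, adjusted p = 2.45e-05), and the plasma membrane pump ATP2B4, at 127.5 ± 4.58 and 87.2 ± 2.79 CPM (-0.55, adjusted p = 1.22e-05). The medians of the 8 genes were 0.16 and 0.23 in the 2 survivor groups.

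Of 22 genes of calmodulin, calcineurin with its NFAT targets and the calmodulin kinases, 18 were tested. In erastin-R cells NFATC1, a transcription factor activated by calcineurin, rose by 1.04 (SE 0.13, adjusted p = 1.73e-05) and the kinase gene CAMK1D fell by 1.19 (SE 0.08, adjusted p = 6.19e-08) on the log2 scale. In RSL3-R cells NFATC2 rose by 1.14 (SE 0.10, adjusted p = 4.29e-07). By the adjusted p alone 5 were higher and 7 lower in erastin-R cells, beside 27.1% and 26.8% of all genes, and 4 higher and 6 lower in RSL3-R cells, beside 23.8% and 24.9%, with medians of 0.02 and -0.08. RSL3-R against erastin-R, CAMK1D was higher by 1.49 (adjusted p = 1.25e-08) and CAMKK1, a kinase that activates CAMK1 and CAMK4 proteins, lower at -1.07 (adjusted p = 2.57e-05). All 4 of these erastin-R results kept their direction without erastin-R replicate 1, with 1.15 for NFATC1, -1.24 for CAMK1D against vehicle, 1.54 for CAMK1D and -1.10 for CAMKK1 between the survivor groups.

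The step from calcium to MAPK was covered by 12 genes of Ras exchange factors, protein kinase C and calcium-sensitive kinases, of which 9 were tested. In erastin-R cells edgeR and DESeq2 each called 0 of them, beside 13.4% of all genes called by edgeR. By the adjusted p alone 2 were higher and 1 lower there, beside 27.1% and 26.8% of all genes. At an unadjusted p under 0.05, 2 were higher and 2 lower, and the median was 0.04. In RSL3-R cells RASGRF1, a calmodulin-dependent Ras exchange factor, rose by 1.10 (SE 0.17, adjusted p = 0.000112) from 3.77 ± 0.798 to 8.10 ± 0.481 CPM (SD, n = 3), and PTK2B, the calcium-sensitive kinase PYK2, rose by 1.13 (SE 0.40, adjusted p = 0.0307) from 0.817 ± 0.260 to 1.78 ± 0.355 CPM. DESeq2 called 1 of the 9 there. By the adjusted p alone 5 were higher and 0 lower, also 0 lower at an unadjusted p under 0.05, beside 23.8% and 24.9% of all genes, with a median of 0.61. RSL3-R against erastin-R, RASGRF1 was higher by 1.54 (adjusted p = 1.02e-05) and its relative RASGRF2 by 1.35 (adjusted p = 0.0369), and without erastin-R replicate 1 by 1.48 and 1.95.

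AMPA receptor subunits, the other partners of γ4 and γ7, had few reads. Of the 4 genes, GRIA4 alone passed the filter, at 0.366 ± 0.103 CPM (SD, n = 3) in vehicle, 0.676 ± 0.218 in erastin-R and 0.789 ± 0.253 in the RSL3-R cells. Its log2 fold changes were 0.87 (95% interval -0.13 to 1.86, adjusted p = 0.129) and 1.08 (0.11 to 2.06, adjusted p = 0.0623). GRIA4 passed through the survivor libraries and is named after its values were seen.

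**Figure D4:**
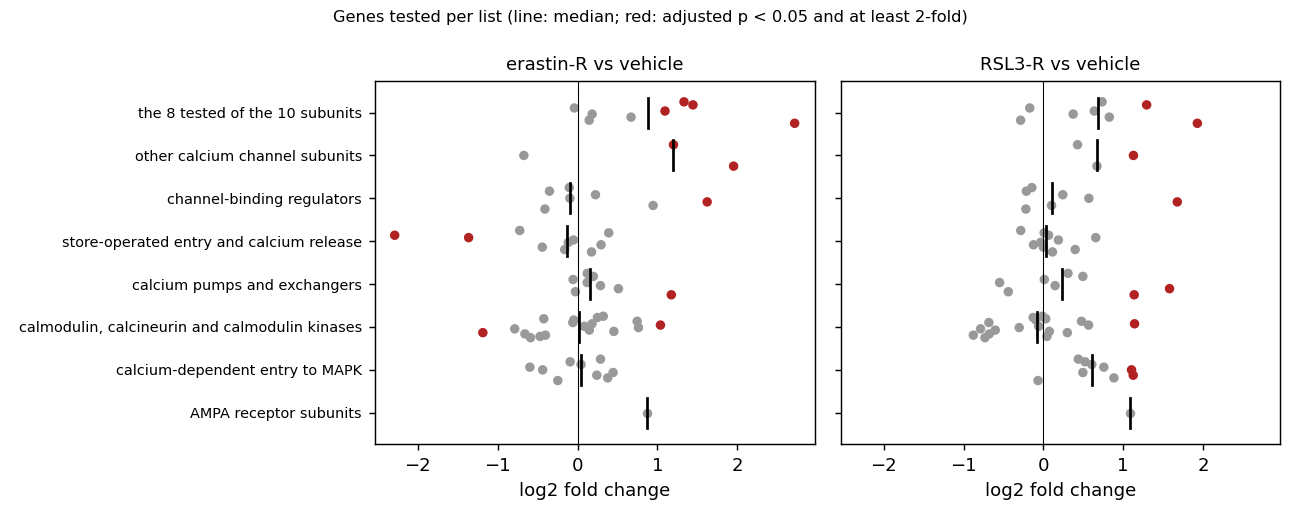
Log2 fold changes against vehicle (x axis) of the tested genes of each list (rows), erastin-R left and RSL3-R right; points are genes, black lines medians. The channel subunits have medians of 0.88 and 0.69, or 0.67 and 0.64 without CACNA1F, which passed the filter only through the survivor groups. The lowest points in erastin-R cells are the ryanodine receptor genes, which passed the filter chiefly through the other groups.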

How the data were processed

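RNA of 9 MDA-MB-231 libraries was poly(A)-selected, prepared with a kit that does not mark strand and sequenced by the authors. For each library the authors deposited a raw read count and an FPKM value per gene. The methods state that uniquely mapped exonic reads were used, the submitters' processing notes name HISAT2 2.0.5 and featureCounts 1.5.0-p3, and the strand setting is not given in the sources used here. Groups came from the sample labels. The members and all gene lists were chosen with earlier results of these data known. Counts were analysed with edgeR 4.0.16 in R 4.3.3 (TMM, filterByExpr, quasi-likelihood test, 1 model of 9 libraries without covariate), with Benjamini-Hochberg adjustment over 16188 genes. A call required an adjusted p under 0.05 and a log2 fold change of 1 or more in either direction. All members were named, and for other lists at most the 3 largest called changes per comparison, with exceptions stated. Alternatives were RLE and upper-quartile scaling, no filter, DESeq2 1.42.0, only the groups compared, a replicate block, each library left out, no minimum fold change, and an unadjusted p with a 2-fold change; other lists and the class sums were redone without erastin-R replicate 1, and member counts without CACNA1F, alternatives chosen after seeing the data. The script was tested on simulated data. Fold changes are log2 unless stated, and CPM values use TMM-scaled library sizes. FPKM, which the authors derived from the counts, was used as deposited. It served to compare genes with each other and to form the class sums and shares, which were set side by side between groups without a test. Sequences are from RefSeq. Python 3.11.15 and matplotlib 3.10.9 made the figures.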

Additional observations from a re-analysis of the deposited data

How the results depend on the processing

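Among refits of single subunit genes, 357 kept the direction and the side of the threshold for a call (adjusted p and 2-fold together) and 3 did not. The exceptions were CACNA1F between the survivor groups without erastin-R replicate 1, described above, CACNB3 in erastin-R cells without vehicle replicate 1 (0.07 in place of -0.04) and CACNG6 between the survivor groups without erastin-R replicate 2 (0.13 in place of -0.15), the last 2 not called either way. A change under 2-fold that crossed an adjusted p of 0.05 alone counted as kept. That held for CACNA2D1 and CACNB1 in RSL3-R cells, not under 0.05 in 9 and 4 of 15 settings. It also held for CACNB2 between the survivor groups (5 of 15) and for CACNB1 in erastin-R cells, under 0.05 only without erastin-R replicate 1. With no minimum fold change, 8735 genes in place of 2162 passed in erastin-R cells, 7879 in place of 1635 in RSL3-R cells and 7969 in place of 1674 between them. The corresponding numbers of subunit genes were 5, 7 and 3, in place of 4, 2 and 0, because this setting drops the 2-fold limit. Leaving out each library gave 0 to 1 subunit genes between the survivor groups, 1 without erastin-R replicate 1. With the replicate block, 4, 2 and 0 subunit genes and 2153, 1614 and 1652 genes in all were called in the 3 comparisons. Libraries of the same number did not deviate together (correlations of -0.090 to 0.052). This gives no sign of pairing by number, but it cannot exclude that libraries were prepared in matched sets. With counts under 10, CACNA1H and CACNG4 give no usable fold change, and CACNA1F rests on few vehicle reads.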
